A study of Homo sapiens with 16 samples.

Results

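Intermediate phase P7 of the GRC1 cell line was compared with its early phase P3, 4 RNA-sequencing libraries against 4, out of the 16 libraries of the series. GRC1 is a line that became resistant to gemcitabine, a deoxycytidine analogue that blocks DNA synthesis, while T24 human bladder cancer cells were put through repeated rounds of the drug. The number of a phase counts these rounds: P0 is the parental T24 line without selection, and P3, P7 and P15 are the same line after successive rounds. All libraries therefore share the T24 background, both phases compared here had been exposed to gemcitabine, and the phases are successive states of 1 selected line, so a difference between them is that of this line and not of resistant cells in general. Titles of all libraries carry the label NT, which the sources used here do not explain. Whether the drug was present when the RNA was taken is not stated. The labels do not say whether the 4 libraries of a phase came from separate cultures, so the p-values measure the spread between these libraries, which may be technical. Of the 38980 gene symbols in the table, 12829 had a mean above 1 CPM (counts scaled to the library total, per 1 M) over the 8 libraries, and all of these were tested.

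As background, gemcitabine enters cells through nucleoside transporters, is phosphorylated by deoxycytidine kinase, and acts on DNA polymerases and on ribonucleotide reductase. Cells that outlive repeated rounds are known to differ from their parents in secreted inflammatory factors, in adhesion and cytoskeletal programmes that depend on contact and tension, and in organelles that handle damaged protein and membrane. The genes below are ordered by such roles.

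Estimated totals were 33.8 to 41.3 M counts at P3 and 34.8 to 50 M at P7, which makes a single count 0.0200 to 0.0296 CPM. Values above 0 were listed for 21744 to 22888 genes in each library. Libraries of the same phase differed by a median of 0.06 to 0.09 on the log2 scale over the tested genes, and libraries of different phases by 0.18 to 0.20. The library medians of the tested genes lay between 4.93 and 4.96, which leaves no shift of a whole phase. Of the epithelial markers, KRT7, KRT8, KRT18, KRT19, EPCAM and EGFR were tested, and their list summed to 2613 to 2734 CPM at P3 and 1928 to 2059 CPM at P7, while KRT5 and CDH1 were below 1 CPM in both phases. PTPRC, FCGR3A, HBB and HBA1, which mark blood cells, were listed at 0 in all 8 libraries, and the markers of that list, 8 of 9 of which are in the table, summed to 1.89 to 2.12 CPM at P3 and 5.50 to 6.11 CPM at P7. CD14, a monocyte receptor and the only one tested, rose by 1.21 ± 0.09 on the log2 scale. The part of other cells in the results was not tested. No endothelial marker passed the filter, and of 7 fibroblast markers only COL1A1 did.

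Between P3 and P7, 4048 genes (31.6%) rose and 3839 (29.9%) fell at an adjusted p below 0.05, or 61.5% in either direction. This threshold is what "rose", "fell" and "passed" mean throughout. Most of these changes were small. The median absolute log2 fold change was 0.175 over all tested genes, and 7648 of the passing genes moved by less than 2-fold. At least 2-fold changes numbered 131 upward (1.02%) and 108 downward (0.842%), and at least 4-fold changes 14 and 15. The 4 libraries of one phase lay wholly above the other 4 for 6783 genes (52.9%). Because the values are log2(CPM+1), fold changes of genes near 1 CPM are understated, and the number of 2-fold changes depends on the pseudocount: 227 upward and 163 downward with 0.1, and 49 and 57 with 5. Since most genes passed, a share of passing genes in a gene list is read below against 31.6% and 29.9%. Just inside the filter stood KCNIP2 at 1.0011 CPM and EN2 at 1.0022 CPM, and just outside it RPL17P50 at 0.99998 CPM and RP11-159D12.6 at 0.99957 CPM.

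**Figure D1:**
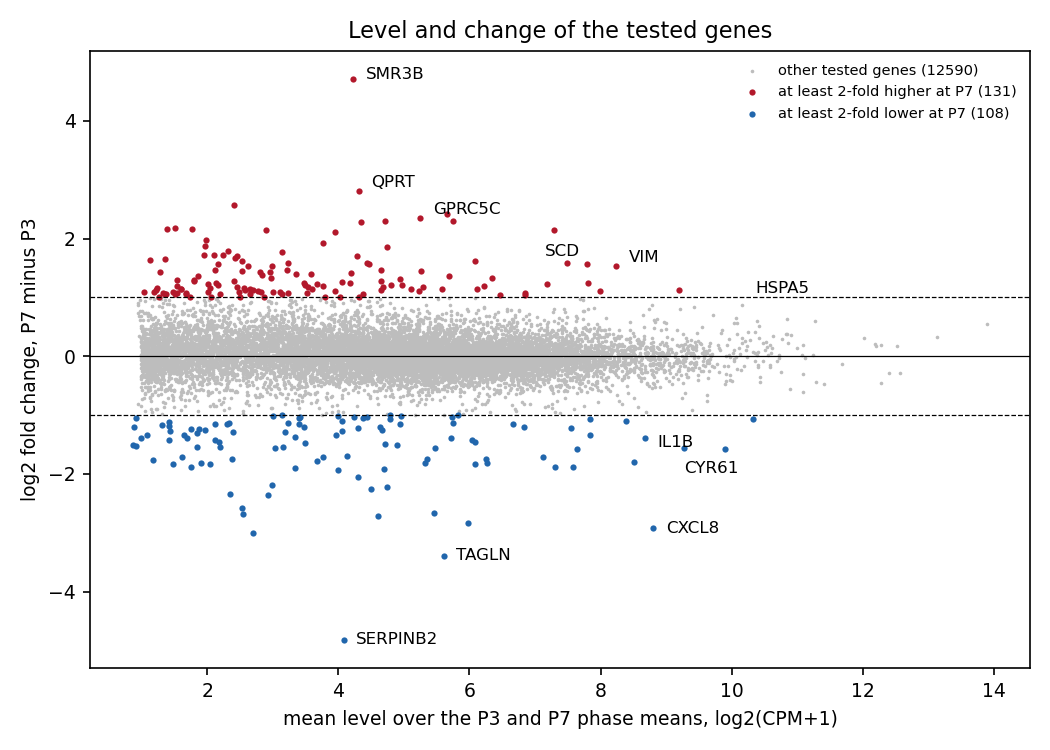
Each point is a tested gene. The horizontal axis is its mean level over P3 and P7 in log2(CPM+1), the vertical axis its log2 fold change, P7 minus P3, and the dashed lines mark 2-fold. The 131 red and 108 blue genes changed at least 2-fold with an adjusted p below 0.05. SMR3B and SERPINB2 lie farthest from 0, at 4.71 and -4.82.

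The largest rise was that of SMR3B, a small secreted protein gene of the salivary gland (chromosome 4, 70370093 to 70390244 on GRCh38). Its levels in log2(CPM+1) were 1.74, 1.87, 1.82 and 2.05 in the P3 libraries and 6.48, 6.64, 6.65 and 6.57 in the P7 libraries. The phases were far apart, at means of 2.67 and 95.1 CPM, and the log2 fold change was 4.71 ± 0.07 (SE, n = 4 libraries per phase; limma, adjusted p = 1.5e-23). SMR3B has a close copy, SMR3A, and how reads shared by them were counted is not given in the sources used here. AMTN, which encodes the enamel protein amelotin and lies on the same chromosome at 70518569 to 70532743, rose by a log2 fold change of 2.16 ± 0.11.

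QPRT, which makes NAD precursor from quinolinate, ranked next. It stood at 3.00, 2.91, 3.02 and 2.69 in log2(CPM+1) at P3 and at 5.69, 5.74, 5.70 and 5.74 at P7 (log2 fold change 2.81 ± 0.06, adjusted p = 8.2e-20). ITGA11, the alpha subunit of a collagen-binding integrin, rose by 2.58 ± 0.11 on the same scale from levels of 0.80 to 1.38 to levels of 3.57 to 3.78. GPRC5C, an orphan receptor, went from levels of 4.04 to 4.14 to levels of 6.33 to 6.49, a log2 fold change of 2.34 ± 0.05. MYLK, the kinase of myosin light chain, rose by 2.28 ± 0.06, and SIGLEC15, a sialic acid-binding surface protein, by 2.29 ± 0.06. The long non-coding RNAs LINC02167 and LINC01411 rose by 2.30 ± 0.05 and 2.18 ± 0.12, and IGFN1 by 2.42 ± 0.07. In none of these genes, picked by the size of their rise, did the libraries of the phases overlap. The same held for 52.9% of all tested genes.

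Downward, SERPINB2 moved most. It encodes plasminogen activator inhibitor 2. The P3 libraries held levels of 6.58, 6.53, 6.43 and 6.42 in log2(CPM+1) and the P7 libraries 1.45, 1.62, 1.79 and 1.82, or means of 89.0 and 2.20 CPM (log2 fold change -4.82 ± 0.07, adjusted p = 6.6e-23). TAGLN, the actin-binding protein transgelin, stood at 7.35, 7.29, 7.33 and 7.25 at P3 and 3.88, 4.01, 3.90 and 3.87 at P7 (log2 fold change -3.39 ± 0.04, adjusted p = 2.3e-24). Of the 10 largest falls, CXCL8, CXCL5, CXCL3 and ANKRD1 are described with their lists. The others, as log2 fold changes, were -3.01 ± 0.11 for ESM1, the secreted proteoglycan endocan, -2.69 ± 0.09 for FAM83A, -2.58 ± 0.10 for EDN1, which encodes the vasoconstrictor endothelin 1, and -2.35 ± 0.07 for PI3, the elastase inhibitor elafin. No library of one phase entered the range of the other for any of them, as for 52.9% of all tested genes.

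**Figure D2:**
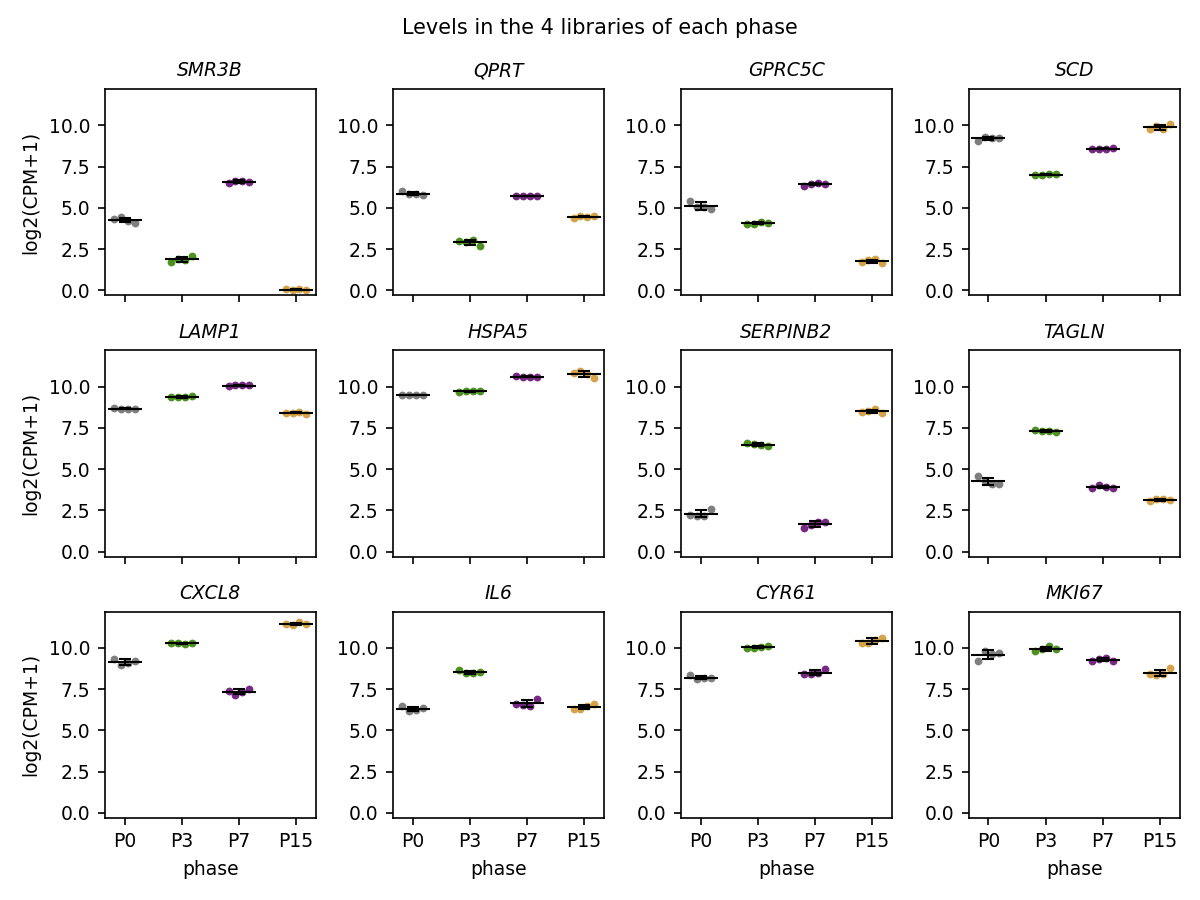
Levels of 12 genes in log2(CPM+1) in the 4 libraries of each phase (points), with the phase mean and its SD (bars). P3 is green and P7 purple, with parental P0 in grey and late P15 in ochre beside them. In every panel the P3 and P7 libraries are apart, as in 52.9% of all tested genes. SERPINB2 and CXCL8 were higher at P15 than at P3.

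Secreted cytokines and chemokines had the lowest median of the lists. Of 43 genes, 32 were tested, and 20 fell (62.5%) while 7 rose, with a median log2 fold change of -0.49 against 0.005 over all tested genes. With no filter on low values the median was -0.22, above that of the YAP list, and several lists described below had a larger share of falls. At least 2-fold falls numbered 12, and the summed level of the list went from between 5918 and 6315 CPM at P3 to between 2494 and 2793 CPM at P7. The group with the widest change were the 6 chemokines of the CXC family that carry the ELR motif and attract neutrophils, CXCL1, CXCL2, CXCL3, CXCL5, CXCL6 and CXCL8. All of them fell at least 2-fold, by log2 fold changes of -2.93 to -1.46.

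CXCL8 (interleukin 8) is shown with the sequence before its start because that stretch holds a binding motif of AP-1, the dimeric factor of FOS and JUN proteins that responds to growth and stress signals. The 85 bases at chr4:73740394-73740478, plus strand, build GRCh38.p14, end 91 bases before the RefSeq start, and capitals mark the motif.
CXCL8: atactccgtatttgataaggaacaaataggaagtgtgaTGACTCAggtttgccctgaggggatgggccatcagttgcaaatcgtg
The letters TGACTCA, read on both strands, occurred in 4.95% of the 35116 promoter windows of the RefSeq table (250 bases before to 50 after a start), in 4.86% of the 9828 tested genes with a window and in 6 of 23 cytokine genes (26.1%). Of those 6, IL11, IL1A, IL23A and CXCL8 fell, and CXCL11 and TNFSF15 rose. CXCL11 did so by 0.24 and missed the threshold without any one of 5 libraries (P3 replicates 1, 2 and 3, P7 replicates 3 and 4), at 0.17 to 0.24. Shares of TGACTCA in the other lists, cell type markers aside, ran from 0.0% to 18.8%, the latter in integrins and laminins. Among genes at least 2-fold lower the share was 13.2%, and among those at least 2-fold higher 8.64%. A match is a description of the sequence and not a measured binding site. CXCL8 itself stood at 10.27, 10.28, 10.24 and 10.29 in log2(CPM+1) in the P3 libraries and at 7.38, 7.16, 7.30 and 7.53 in the P7 libraries, means of 1234 and 162 CPM (log2 fold change -2.93 ± 0.05, adjusted p = 1.1e-22).

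The other members of that chemokine family followed with their own sizes. CXCL5 went from levels of 7.30 to 7.5 in log2(CPM+1) to levels of 4.44 to 4.63, CXCL3 from 5.76 to 6.11 down to 3.16 to 3.35, and CXCL2 from 6.19 to 6.26 down to 4.20 to 4.77. CXCL1 fell from 10.62 to 10.78 down to 8.99 to 9.30. These genes lie together on chromosome 4 and resemble each other in sequence, CXCL1, CXCL2 and CXCL3 most closely, so the split of reads among them is uncertain.

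Interleukin 6, the founding member of the gp130 family, stood at 8.64, 8.45, 8.46 and 8.53 in log2(CPM+1) at P3 and at 6.58, 6.51, 6.50 and 6.93 at P7, and IL6 fell by 1.89 ± 0.06 on the log2 scale (adjusted p = 9e-17). IL11, which signals through the same receptor chain, went from levels of 6.18 to 6.26 to levels of 4.44 to 4.51. LIF, of the same family, moved little, with a log2 fold change of -0.14 ± 0.03. IL1B, interleukin 1 beta, went from levels of 9.34 to 9.40 down to 7.92 to 8.0, a log2 fold change of -1.4 ± 0.03. On the log2 scale IL24 fell by 1.84 ± 0.09. The log2 fold change was -1.13 ± 0.08 for CCL20, which attracts lymphocytes, -0.30 ± 0.04 for CSF3 and -0.93 ± 0.10 for IL23A, a subunit of interleukin 23. Besides CXCL11, the members that rose were TNFSF15, a ligand of the TNF family, by 0.71 ± 0.13, TNFSF10 (TRAIL) by 0.46 ± 0.13 with overlapping libraries, TNFSF9 by 0.41 ± 0.05, IL15 by 0.42 ± 0.09, and the chemokines CXCL16 by 0.33 ± 0.06 and CXCL10, which is induced by interferon, by 0.28 ± 0.08. CXCL10 missed the threshold with all 16 libraries in the fit and with quantile normalization, where its log2 fold change was 0.17.

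Genes that control or report NF-kappaB, a factor that switches on inflammatory genes, also mostly fell: 15 of 19 (78.9%), with 1 rise and a median of -0.21. TNFAIP3, the feedback inhibitor A20, stood at 8.45, 8.37, 8.44 and 8.48 in log2(CPM+1) at P3 and 6.88, 6.84, 6.81 and 6.88 at P7. Its log2 fold change was -1.58 ± 0.03. For TRAF1, an adaptor of TNF receptors, it was -1.28 ± 0.06, and for PTGS2, the inducible cyclooxygenase, -1.03 ± 0.05. The riser was TNFAIP2, at 0.12 ± 0.04 with overlapping libraries.

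Among AP-1 factors and genes that report or dampen the kinase ERK, 16 of 25 fell (64.0%) and 6 rose, at a median of -0.23. The FOS and JUN genes were split. FOS (-0.70 ± 0.11), JUN (-0.42 ± 0.03), JUNB (-0.35 ± 0.06), FOSL2 (-0.17 ± 0.03) and FOSL1 (-0.12 ± 0.03) fell, while FOSB (0.33 ± 0.07) and JUND (0.28 ± 0.07) rose. EGR1, an immediate early transcription factor, had levels of 5.54, 5.28, 5.66 and 6.03 at P3 and 3.25, 3.21, 3.17 and 3.82 at P7. The phosphatase DUSP1, which inactivates stress kinases, had a log2 fold change of -1.88 ± 0.03, and its relative DUSP5 one of -1.0 ± 0.04. ERK-induced genes moved in both directions, since SPRY2 rose by 0.59 ± 0.04, ETV4 by 0.34 ± 0.04 and ETV5 by 0.34 ± 0.04.

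YAP and TEAD proteins carry signals from cell shape and tension to the nucleus. Of 19 genes of that list, 14 fell (73.7%) and 3 rose, with a median of -0.37, and the list's sum went from between 4255 and 4395 CPM to between 2430 and 2502 CPM. CYR61 (CCN1), a matricellular target, stood at 10.01, 10.00, 10.06 and 10.12 in log2(CPM+1) at P3 and at 8.39, 8.42, 8.45 and 8.70 at P7, and its relative CTGF (CCN2) at 7.01, 7.03, 7.17 and 7.30 and then 5.39, 5.32, 5.23 and 5.59. The log2 fold change was -2.66 ± 0.04 for ANKRD1, another target of these factors, -1.80 ± 0.03 for F3 (tissue factor) and -1.15 ± 0.05 for the kinase NUAK2. TEAD2, a DNA-binding partner of YAP, rose by 0.57 ± 0.08. Contractile actin genes fell in 20 of 23 cases (87.0%) at a median of -0.24. Apart from TAGLN their changes were below 2-fold, with CALD1 (caldesmon) at -0.93 ± 0.03 and FLNC (filamin C) at -0.59 ± 0.04, while ACTA2, smooth muscle actin, rose by 0.42 ± 0.10. MYLK, which acts on the same apparatus, was among the 10 largest rises.

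**Figure D3:**
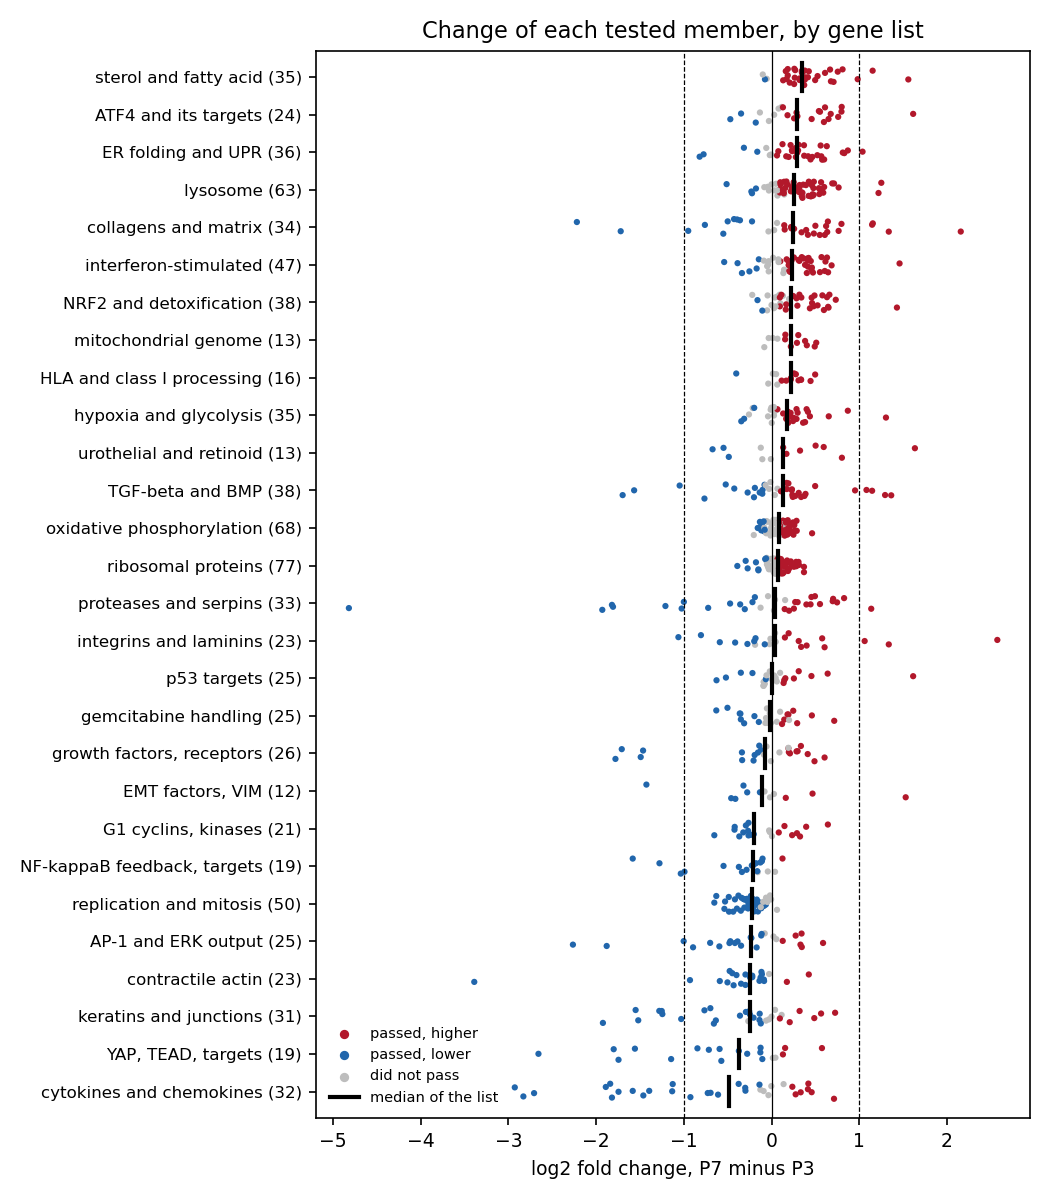
Log2 fold change, P7 minus P3, of each tested member of 28 gene lists (points; red passed upward, blue passed downward, grey did not pass), with the number tested in parentheses and the median of the list as a black bar. Dashed lines mark 2-fold. Medians run from -0.49 for cytokines and chemokines to 0.35 for sterol and fatty acid synthesis.

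Growth factor genes were split, 9 rising and 11 falling of 26. The 4 that fell at least 2-fold were all ligands: FGF5 (log2 fold change -1.78 ± 0.07), HBEGF (-1.71 ± 0.03), KITLG (-1.49 ± 0.05) and FGF1 (-1.47 ± 0.12). HBEGF, a ligand of the EGF receptor, had levels of 7.93 to 8.02 at P3 and 6.22 to 6.32 at P7. VEGFB rose by 0.60 ± 0.04 and PDGFC by 0.41 ± 0.05.

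Proteases, plasminogen activators and their inhibitors were split as a list, with 15 rises and 13 falls of 33 and a median of 0.04, but at least 2-fold changes were 7 downward and 1 upward. Besides SERPINB2, those that fell were the collagenase MMP1 (log2 fold change -1.93 ± 0.06), the stromelysin MMP3 (-1.82 ± 0.11), the tissue plasminogen activator PLAT (-1.81 ± 0.04), ADAMTS1 (-1.21 ± 0.03), ADAMTS6 (-1.02 ± 0.06) and SERPINB7 (-1.0). TIMP3, an inhibitor of metalloproteinases, went the other way, from levels of 4.47 to 4.65 to levels of 5.60 to 5.73, a log2 fold change of 1.14 ± 0.05.

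Keratin and junction genes fell in 19 of 31 cases (61.3%), with 6 rises and a median of -0.25, and 7 fell at least 2-fold. KRT19, a simple epithelial keratin, stood at 5.81, 5.58, 5.62 and 5.62 in log2(CPM+1) at P3 and 3.68, 3.83, 3.75 and 3.68 at P7. The log2 fold change was -1.55 ± 0.10 for the desmosomal cadherin DSC3, -1.52 ± 0.14 for KRT17, -1.28 ± 0.10 for the connexin GJA1, and -1.25 ± 0.10 for CDH4. CDH13 (T-cadherin) rose by 0.72 ± 0.03 and CLDN4 by 0.56 ± 0.12. In the list on epithelial-mesenchymal transition, 12 of 22 genes were tested, 3 rising and 6 falling, at a median of -0.11. VIM, the mesenchymal intermediate filament vimentin, went from 7.52, 7.45, 7.42 and 7.51 to between 8.98 and 9.05 (log2 fold change 1.53 ± 0.03), ESRP2, an epithelial splicing regulator, had one of -1.43 ± 0.11, and the transcription factor SNAI2 rose by 0.47 ± 0.04. ZEB1 and ZEB2 did not pass. CDH2 (N-cadherin), counted with the junction genes, fell by 0.14 ± 0.03. The study names it as a positive marker of that transition.

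Replication and mitosis genes fell together but by little. All 50 were tested, 43 fell (86.0%), 0 rose and none reached 2-fold, with a median of -0.22 and a range of -0.65 to 0.06. MKI67, the proliferation antigen, stood at 9.80, 9.96, 10.10 and 9.92 at P3 and 9.23, 9.32, 9.39 and 9.23 at P7. RRM2, the small subunit of ribonucleotide reductase, which gemcitabine metabolites inhibit, had a log2 fold change of -0.63 ± 0.03 and the mitotic ubiquitin-conjugating enzyme UBE2C one of -0.54 ± 0.03. Of the 6 MCM helicase subunits, 5 fell, at a median of -0.10 over the 6.

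Of 21 tested genes of the G1 phase, 11 fell (52.4%) and 7 rose. Among those that promote entry into S phase, falls were seen in the phosphatase CDC25A (log2 fold change -0.65 ± 0.05), CDK2 (-0.42 ± 0.04), the cyclin CCND3 (-0.37 ± 0.04), CDK6 (-0.32 ± 0.04) and CCNE1 (-0.23 ± 0.05), while CDK4 rose by 0.08 ± 0.03. CDK4 missed the threshold without a variance trend and, at 0.06, without P3 replicate 4. Among genes that restrain it, rises were seen in CDKN1C at 0.64 ± 0.08, CDKN2B at 0.40 ± 0.08, CDKN1B at 0.23 and RB1 at 0.33 ± 0.03. CDKN2D, an inhibitor too, fell by 0.42 ± 0.06, and RBL1, a relative of RB1, had a log2 fold change of -0.26 ± 0.04. CDKN1A, the p53-induced inhibitor p21, did not pass at -0.02. p53 targets as a list were near the background, 8 rising and 5 falling of 25 with a median of 0.00. Only GDF15 among them rose at least 2-fold.

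Genes that handle gemcitabine gave no common direction, with 8 rises, 8 falls and 9 that did not pass of 25 tested (32.0% in each direction), and none changed 2-fold. The falls were RRM2, RRM1 and TYMS among the targets, CTPS1 (-0.50 ± 0.03), NME1 (-0.36 ± 0.04) NME2 (-0.31 ± 0.11) and SAMHD1 among enzymes of nucleotide metabolism, and SLC29A1, the main uptake transporter, at -0.35. NME1 and NME2 are neighbours with similar sequences, so the split of reads between them is uncertain. NME2 missed the threshold with no filter on low values (-0.31) and without any one of 3 libraries (P3 replicate 4, P7 replicates 1 and 2), at -0.28 to -0.26. SLC29A2, a second transporter, rose by 0.71 ± 0.11 from levels of 1.25 to 1.70 to levels of 2.04 to 2.30, TK2 by 0.46 ± 0.07, the ecto-nucleotidase NT5E by 0.25 ± 0.03 and the efflux pump ABCG2 by 0.29 ± 0.10. ABCG2 missed the threshold with no filter on low values and, at 0.21, with quantile normalization. DCK, the activating kinase, did not pass, at -0.06, but passed at -0.10 without P7 replicate 1 (adjusted p = 0.047). CDA, which inactivates the drug, was below the filter, with 0.82 ± 0.29 at P3 and 0.53 ± 0.11 at P7 in log2(CPM+1) (SD, n = 4).

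Lysosomal genes rose. Of 68, 63 were tested, and 50 rose (79.4%) while 4 fell, with a median of 0.26 and a summed level of 8216 to 8432 CPM at P3 and 10539 to 10829 CPM at P7. Lysosomal genes are known to share the CLEAR element, built around an E-box with the letters CACGTG, which the transcription factors TFEB, TFE3 and MITF bind. The E-box lies in the windows before LAMP1, an abundant membrane glycoprotein, and NEU1, a sialidase, whose stretches are shown for that reason, with the E-box in capitals.
LAMP1: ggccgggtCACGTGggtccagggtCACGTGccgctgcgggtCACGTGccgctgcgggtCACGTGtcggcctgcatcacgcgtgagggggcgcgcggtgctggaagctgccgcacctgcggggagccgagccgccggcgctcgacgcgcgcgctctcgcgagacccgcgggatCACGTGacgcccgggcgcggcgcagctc
NEU1: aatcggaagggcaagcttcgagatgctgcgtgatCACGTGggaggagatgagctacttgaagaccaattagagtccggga
The LAMP1 stretch is chr13:113297039-113297238 on the plus strand of GRCh38.p14, the 200 bases that end at the base before the RefSeq start, and holds 5 E-boxes. That of NEU1 is chr6:31862902-31862981 on the minus strand, 80 bases with 1 E-box that end 81 bases before the start. CACGTG, which reads the same on both strands and does not overlap the AP-1 letters, occurred in 7.26% of all promoter windows, in 12.6% of the tested genes with a window and in 12 of 41 lysosomal genes (29.3%). Of those 12 genes 8 rose, at a median log2 fold change of 0.34, and of the 29 without it 23 rose, at a median of 0.25. E-box shares in the other lists ran from 0.0% to 25.8%, the latter in hypoxia and glycolysis genes. G1 genes had 23.5%.

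LAMP1 stood at 9.36, 9.36, 9.34 and 9.42 in log2(CPM+1) at P3 and at 10.03, 10.07, 10.07 and 10.08 at P7 (log2 fold change 0.69 ± 0.03, adjusted p = 3.3e-16), and LAMP2, its relative, rose by 0.17 ± 0.03. NEU1 went from levels of 6.30 to 6.35 to levels of 6.72 to 6.84. CTSD, the aspartic protease cathepsin D, moved most of the list, from 7.24, 7.18, 7.14 and 7.18 to between 8.31 and 8.51 (log2 fold change 1.25 ± 0.04), and 10 of the 12 cathepsins rose. LAPTM5, a lysosomal membrane protein otherwise known from blood cells, rose by 1.22 ± 0.03 from levels of 6.54 to 6.62. Of the blood cell markers, CD14 rose too and PTPRC was at 0 in all 8 libraries, as given above. The protease TPP1 rose by 0.76 ± 0.03. Of the regulators, TFEB rose by 0.54 ± 0.10, while TFE3 (-0.22 ± 0.03) and MITF (-0.51 ± 0.09) fell. The P3 means of TFEB, TFE3 and MITF were 2.06, 7.39 and 3.185 in log2(CPM+1). LAMP1 lies on the distal part of chromosome 13 described below.

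Chaperones and folding enzymes of the endoplasmic reticulum (ER) rose in 29 of 36 cases (80.6%) with a median of 0.29, and the list's sum went from between 12249 and 12416 CPM to between 15518 and 15576 CPM. HSPA5, the ER chaperone BiP, stood at 9.70, 9.71, 9.74 and 9.76 at P3 and at 10.65, 10.57, 10.59 and 10.58 at P7 (log2 fold change 0.87 ± 0.03, adjusted p = 6.9e-18). HERPUD1, of ER-associated degradation, rose by 1.04 ± 0.04, the disulfide isomerase PDIA4 by 0.83 ± 0.02, HSP90B1 (GRP94) by 0.60 ± 0.02 and DDIT3 (CHOP) by 0.28 ± 0.06. The 4 that fell held the stress sensor ERN1 (IRE1) at -0.82 ± 0.05 and PPP1R15A (GADD34), which restores translation, at -0.78 ± 0.04. The other falls were ATF6, at -0.16, and SSR3, at -0.32 ± 0.03.

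In the list of ATF4, the factor of the integrated stress response, and its targets, 16 of 24 genes rose (66.7%) at a median of 0.29. ATF4 itself did not pass, at -0.03 ± 0.03. GDF15, a secreted stress cytokine, went from 5.32, 5.26, 5.25 and 5.27 to 6.79, 6.95, 6.93 and 6.89 (log2 fold change 1.61 ± 0.04). DDIT4, an inhibitor of mTOR signalling, rose by 0.80 ± 0.06 and the serine synthesis enzyme PHGDH by 0.80 ± 0.03. ATF3 and ATF5, transcription factors of the same response, fell, with log2 fold changes of -0.47 ± 0.08 and -0.35 ± 0.04.

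The list with the highest median was that of sterol and fatty acid synthesis, at 0.35. Of 35 genes 32 rose (91.4%), and 19 of the 20 enzymes and regulators of the sterol pathway were among them. SCD, which desaturates fatty acids, stood at 6.96, 7.01, 7.03 and 7.04 in log2(CPM+1) at P3 and at 8.55, 8.58, 8.54 and 8.61 at P7 (log2 fold change 1.56 ± 0.03, adjusted p = 9e-22). The transcription factor SREBF1, which drives such genes, rose by 0.98 ± 0.04, and the feedback regulator INSIG1 by 0.81. The single fall was ELOVL5, which overlapped between the phases and missed the threshold without any one of 4 libraries (P3 replicates 2 and 4, P7 replicates 2 and 3), at -0.07 to -0.06. PMVK and ACLY did not pass, although ACLY did at -0.06 without P7 replicate 4.

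Metabolic and detoxification genes rose to a lesser degree. Hypoxia and glycolysis genes rose in 22 of 35 cases (62.9%) at a median of 0.18, led by the aldolase ALDOC at 1.30 ± 0.06 and NDRG1 at 0.87 ± 0.03, whereas HK2, the first enzyme of glycolysis, and HIF1A fell, with log2 fold changes of -0.31 ± 0.03 and -0.20 ± 0.03. NRF2 targets, glutathione and aldehyde enzymes rose in 24 of 38 cases (63.2%) at a median of 0.22. AKR1C3, a ketosteroid reductase, rose from levels of 1.96 to 2.34 to levels of 3.50 to 3.59 (log2 fold change 1.43 ± 0.09), though close copies in the AKR1C family leave the split of reads uncertain. ALDH1A3, which makes retinoic acid, rose by 0.66 ± 0.04.

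The 13 protein-coding genes of the mitochondrial genome gave 9 rises and 0 falls with a median of 0.22. Nuclear subunits of oxidative phosphorylation gave 30 rises and 8 falls of 68 at a median of 0.08, and ribosomal proteins 39 and 8 of 77 at a median of 0.07.

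Interferon-stimulated genes rose in 31 of 47 cases (66.0%) and fell in 6, at a median of 0.23. IFI44L moved most, from levels of 1.35 to 1.44 to levels of 2.71 to 2.96 (log2 fold change 1.46 ± 0.09), followed by IFI44 at 0.68 ± 0.04 and IFITM1 at 0.65 ± 0.06. IFIT1 and IFIT3, antiviral proteins that share sequence with each other, rose by 0.21 ± 0.03 and 0.25 ± 0.03, and IFIT2 did not pass, at 0.02 ± 0.03 with overlapping libraries. Falls were those of GBP3 (-0.54 ± 0.04), OAS3 (-0.39 ± 0.03) and IRF7, a regulator of interferon genes (-0.34 ± 0.06), among others. IFNB1, interferon beta itself, did not pass. Its levels were 1.08 ± 0.22 at P3 and 1.04 ± 0.16 at P7 in log2(CPM+1) (SD, n = 4). HLA and class I processing genes rose in 11 of 16 cases (68.8%), and the classical gene HLA-B, whose reads are hard to separate from those of its relatives, by 0.44 ± 0.03. TAP2, a peptide transporter, was the single fall, at -0.40 ± 0.05.

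Collagens and other matrix genes moved in both directions with large changes. Of 34 tested, 21 rose (61.8%) and 10 fell, and the list's sum went from between 19299 and 20789 CPM to between 27312 and 29034 CPM. Most of that gain was FN1 (fibronectin), with means of 12600 CPM at P3 and 18440 CPM at P7 and a log2 fold change of 0.55 ± 0.04. FN1 did not pass with quantile normalization, which gives genes of the same rank the same value (log2 fold change 0.00). COL6A3, a chain of microfibrillar collagen, rose from levels of 0.43 to 0.92 to levels of 2.74 to 2.92 (log2 fold change 2.16 ± 0.11). The cross-linking enzyme LOX, at 5.56 to 5.77 and then 6.98 to 7.05, rose by 1.34 ± 0.04, COL1A1 by 1.16 ± 0.09 and TGFBI by 1.15 ± 0.04. VCAN, the proteoglycan versican, stood at 5.75, 5.88, 5.91 and 5.86 at P3 and 3.74, 3.70, 3.59 and 3.49 at P7, and COL4A6, of basement membrane, fell by 1.72 ± 0.07 on the log2 scale. Integrin and laminin subunits were split, with 10 rises and 8 falls of 23 and a median of 0.04. Next to ITGA11, the laminin chain LAMA4 rose by 1.34 ± 0.09 and ITGB4 by 1.06 ± 0.07, while its usual partner ITGA6 fell (-0.80 ± 0.03).

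TGF-beta and BMP pathway genes gave 20 rises and 13 falls of 38, at a median of 0.13. LTBP3, which stores latent TGF-beta in the matrix, rose by 1.36 ± 0.04, the BMP-induced genes SMAD6 and ID2 by 1.29 ± 0.11 and 1.08 ± 0.09. The ligands INHBB (-1.70 ± 0.06) and TGFB2 (-1.05 ± 0.08) fell, as did FST (-1.57 ± 0.05), follistatin, which binds activins. Of 13 tested urothelial and retinoid genes, 7 rose and 3 fell. STRA6, the retinol importer, rose from levels of 0.14 to 0.45 to levels of 1.86 to 2.15, the urothelial factor PPARG by 0.80 ± 0.04 and KLF4 by 0.59 ± 0.05, while FOXA1 (-0.49 ± 0.07) and KLF5 (-0.67 ± 0.03) fell. No uroplakin gene passed the filter.

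The 12195 tested genes that could be placed (95.1%) filled 428 windows of 5 Mb with at least 10 genes, whose median log2 fold changes ran from -0.27 to 0.44. All 4 windows with an absolute median of at least 0.3 lay on the long arm of chromosome 13. From 75 to 80 Mb, 8 of 13 genes rose at a median of 0.33, from 95 to 100 Mb 15 of 18 at 0.31, from 100 to 105 Mb 10 of 10 at 0.44, and from 110 to 115 Mb 23 of 27 at 0.37, with 2, 1, 0 and 0 falls. With no filter on low values, which adds genes at or near 0, the medians of these windows were 0.04 to 0.11. The windows from 45 to 50 and from 50 to 55 Mb, the first of which holds RB1, had medians of 0.29 and 0.27, so 6 of the 7 windows of the genome at or above 0.25 were on this chromosome. The 5 windows nearer to the centromere, from 20 to 45 Mb, had medians of -0.16 to -0.05. On the whole chromosome 123 of 221 genes rose (55.7%) and 48 fell. Elsewhere shifts were of smaller size and went in both directions. On chromosome 16 the window from 65 to 70 Mb had 40 falls and 4 rises among 64 genes at a median of -0.22, and the next 3 windows had medians of -0.22, -0.19 and -0.17. On chromosome 8 all 7 windows from 10 to 45 Mb had medians below 0, of -0.27 to -0.07. On chromosome 15, 181 of 397 genes fell (45.6%) and 72 rose (18.1%). Upward, chromosome 4 had 186 rises (41.4%) and 93 falls (20.7%) among 449 genes. Chromosome 6 had 240 rises (39.2%) and 145 falls (23.7%) among 613, and its window from 45 to 50 Mb had a median of 0.29.

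Within these windows PCCA, a subunit of propionyl-CoA carboxylase, rose by 1.11 ± 0.04 and CLYBL, a mitochondrial lyase, by 0.86 ± 0.10. DNAJC3, an ER co-chaperone that is also counted in the ER list, rose by 0.81 ± 0.03, UBAC2, of ER-associated degradation, by 0.78 ± 0.03, RASA3, which inactivates RAS-related proteins, by 0.80 ± 0.03, COL4A1, of basement membrane collagen, by 0.80 ± 0.03, and ANKRD10 by 0.73 ± 0.05. DNA was not measured here, and the part of copy number in these values was not tested.

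**Figure D4:**
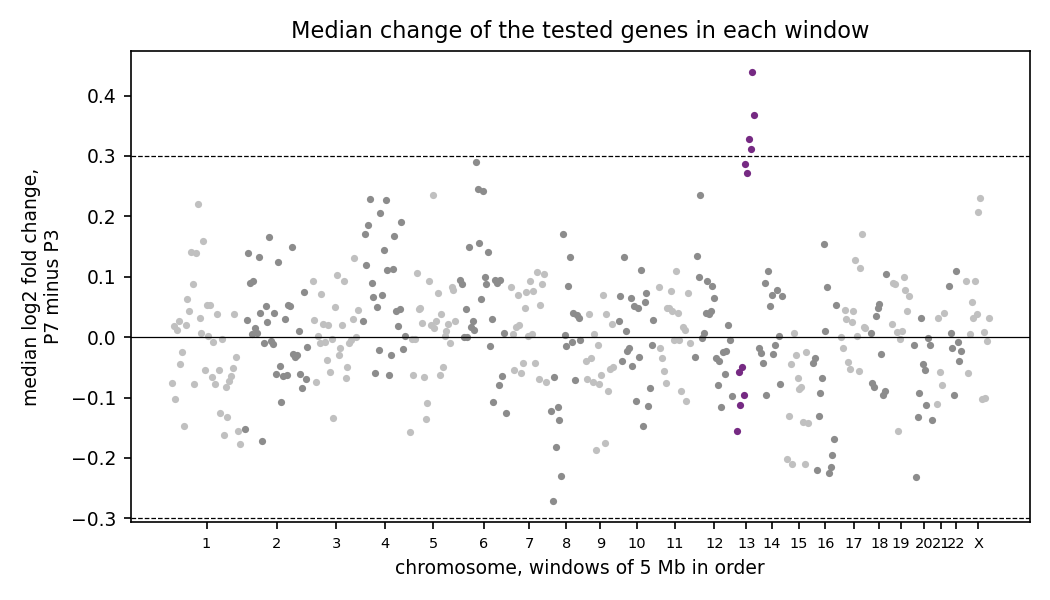
Each point is a window of 5 Mb with at least 10 tested genes. The vertical axis is the median log2 fold change of its genes, P7 minus P3, and the horizontal axis places the windows in chromosome order, with dashed lines at 0.3 and -0.3. Chromosome 13 is purple, and 6 of its 11 windows lie at 0.27 or above while the 5 nearest to the centromere lie below 0.

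Levels in the other phases place the genes without a further test, since a comparison with P0 or P15 would share the P3 or P7 libraries. Over the 131 genes that rose at least 2-fold, the median level in log2(CPM+1) was 3.69 at P0, 2.28 at P3, 3.68 at P7 and 2.24 at P15. Over the 108 that fell it was 3.67, 4.62, 2.97 and 4.17. For 65 of the 131 the P0 mean lay between the P3 and P7 means, for 46 above both and for 20 below both. For the 108, these numbers were 46, 16 and 46. All these genes were chosen for a wide gap between P3 and P7, and the same counts over all tested genes were not made. Whether P7 lies nearer to P0 than P3 does was not tested. QPRT, which at P0 lay above both, had means of 5.86 at P0, 2.90 at P3, 5.72 at P7 and 4.46 at P15.

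The lists differed in where P7 stood among the 4 phases, given here as the median deviation of the tested members from their mean over P3 and P7. For the ER list it was -0.51 ± 0.02 at P0, -0.13 ± 0.01 at P3, 0.15 ± 0.01 at P7 and -0.30 ± 0.02 at P15 (SD, n = 4 libraries), and the lysosomal list was likewise highest at P7, with 0.12 to 0.14 against at most -0.11 in any other library. Single members of the ER list differed. Means of HSPA5, HERPUD1 and DDIT3 were 10.6, 7.0 and 4.5 in log2(CPM+1) at P7 and 10.8, 7.4 and 6.2 at P15. Those of PDIA4 and HSP90B1 were lower at P15 than at P7. Lysosomal members differed too. CTSC, CTSL, TFEB, TFE3 and MITF had higher means at P15 than at P7, and LAMP1, LAMP2, CTSD and NEU1 lower ones. The sterol list was lowest at P3, with -0.17 ± 0.04, and stood at 0.54 ± 0.05 at P0, 0.17 ± 0.03 at P7 and 1.02 ± 0.05 at P15. By the median deviation cytokines were highest at P3. It was 0.22 to 0.32 in the P3 libraries and below 0 in all libraries of P0, P7 and P15. Members differed at P15. Of the 12 that fell at least 2-fold, CXCL2, CXCL3, CXCL6, CXCL8, CCL20, IL24 and IL32 had higher means at P15 than at P3. CXCL1, CXCL5, IL6, IL11 and IL1B had lower ones. Interferon-stimulated genes were at 0.13 ± 0.06 at P0 and 0.13 ± 0.03 at P7, with -0.12 ± 0.02 at P3 and -1.45 ± 0.03 at P15. That median covers members that differ. IFIT1, IFIT2, IFIT3, OASL and RSAD2 had lower means at P0 than at P3 and P7, and IFI27, IFITM1 and MX1 higher ones. In log2(CPM+1) at P0, P3 and P7, IFIT1 had 5.07, 7.15 and 7.36, and IFI27 had 7.58, 5.72 and 5.80.

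**Figure D5:**
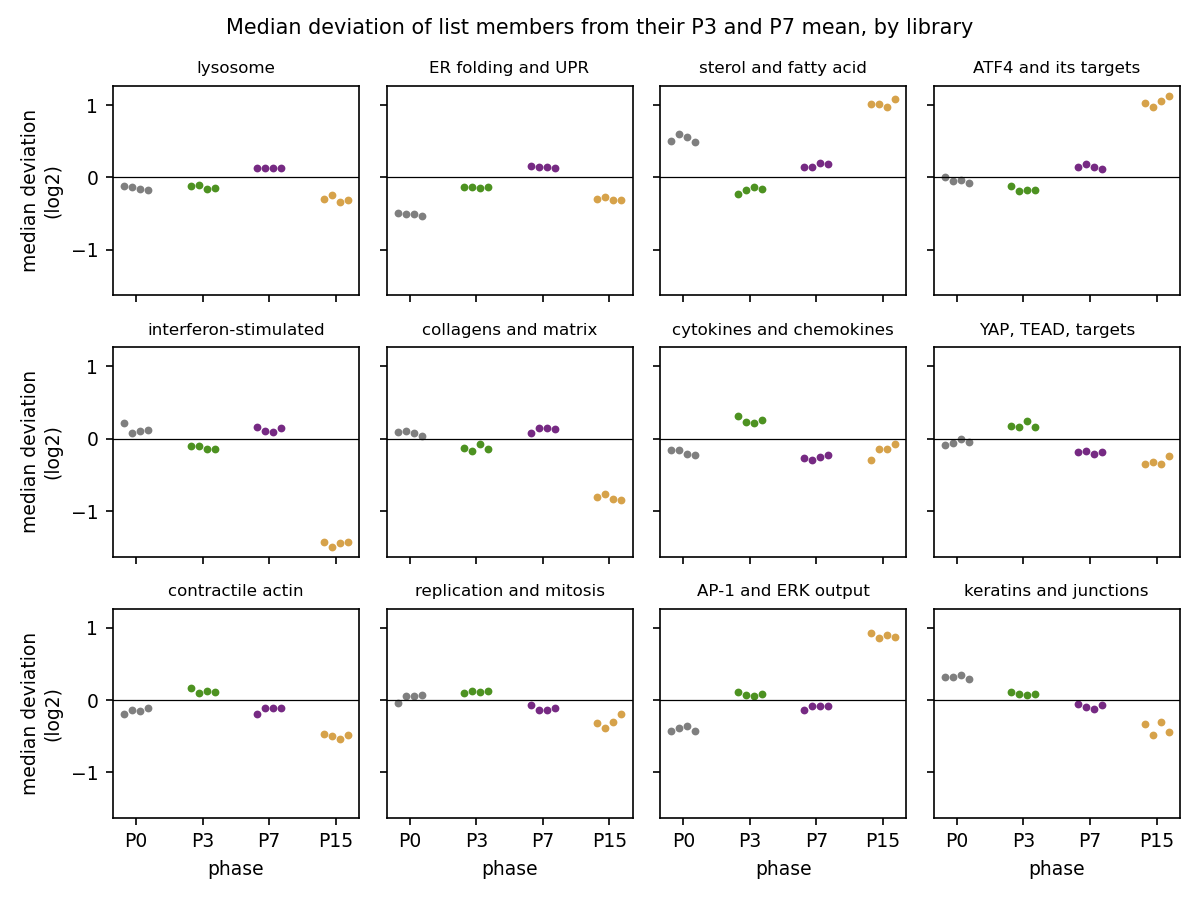
Median deviation in log2 of the tested members of 12 lists from their mean over the P3 and P7 libraries, 1 point per library, by phase. P3 and P7 mirror each other because their mean is the zero line. By these medians the ER and lysosomal lists are highest at P7, cytokines at P3, and the sterol list is lowest at P3. Single members can differ.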

How the data were processed

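RNA was sequenced from 16 libraries, 4 per phase. The authors aligned paired reads to GRCh38 with STAR 2.6.1a, counted them on genes with featureCounts and deposited log2 values of CPM plus 1 with 2 decimals. The study's methods go on to quantile normalization and to centring on medians, of which these values show no trace. The strand setting and the handling of reads that match several genes are not given in the sources used here. Rows whose symbol had become a date (27 of 39007, at most 0.241% of the CPM of a library) were left out. Library totals were read from the step between the smallest values, and counting error is largest for genes near 1 CPM.

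P7 was tested against P3 by limma 3.58.1 (R 4.3.3), using a trend in the variance prior, over genes with a mean above 1 CPM, and with Benjamini-Hochberg adjustment over all of them. The procedure was tested on simulated data. A change counted as 2-fold where the absolute log2 fold change was also at least 1. Lists are described by counts and medians, with no test. The members and lists were chosen with earlier results of these data known. The text names the 10 largest rises and falls, in each list the 3 members that rose and the 3 that fell most with any 2-fold change, up to 4 genes of each described window, genes the study names for these phases, and markers. LIF, CSF3, CXCL10, CXCL11, CXCL16, TNFSF9, FN1, NME2, ATF4, CDK4, RBL1, IL1A, CDKN1A, CDKN1B, ATF6, INSIG1, PMVK, ACLY, DCK, SLC29A1, SAMHD1, RRM1, TYMS, ZEB1 and ZEB2 were chosen after their values were seen. So were CDH2, CTSC, CTSL, FOS, FOSB, FOSL1, FOSL2, JUN, JUNB and JUND, for which the closing checks give no result. Some genes that this rule names are not reported here. Genes were placed with GENCODE version 44 on GRCh38, 465 by an older symbol, and promoters came from RefSeq. Replicate numbers of the titles were not used as pairs, and whether they pair libraries is not stated. The suffix S11 of the titles occurs at P3 and at P7, and sequencing runs are not named, so run and phase cannot be told apart. Alternatives were other filters, pseudocounts and scalings, no variance trend, a robust prior, all 16 libraries in the fit, a replicate block, the treat test of limma, and leaving out each library. Tables and figures were made in Python 3.11.15 with pandas 2.3.3, numpy 2.4.6 and matplotlib 3.10.9.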

Additional observations from a re-analysis of the deposited data

Results flagged for a closer look

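In 28 of 398 groups of 4 libraries (199 named genes at P3 and at P7), 1 library stood apart, with a gap to its nearest neighbour, as a share of the range of the group, above Dixon's critical value for 4 libraries. Chance gives about 1 in 20, or 19.9. Several of these shares come from ranges of a few hundredths. Levels are in log2(CPM+1), that library's value first. At P3, replicate 1 stood apart in ATF4 (9.39 against 9.29 to 9.30, share 0.90), IL15 (1.84 against 2.15 to 2.18, share 0.91), IRF7 (5.86 against 5.50 to 5.55, share 0.86), PPP1R15A (8.47 against 8.31 to 8.32, share 0.94) and TRAF1 (4.87 against 4.60 to 4.64, share 0.85). Replicate 2 of P3 stood apart in CDKN1B (5.24 against 5.32 to 5.33, share 0.89). Replicate 3 of P3 stood apart in ATF3 (3.21 against 3.48 to 3.52, share 0.87), ESRP2 (1.95 against 2.19 to 2.20, share 0.96), IFIT1 (7.09 against 7.16 to 7.17, share 0.88) and TAP2 (5.40 against 5.33 to 5.34, share 0.86), and replicate 4 in CXCL16 (3.69 against 3.74 to 3.75, share 0.83). P7 replicate 1 had ATF5 (5.33 against 5.44 to 5.45, share 0.92), ATF6 (6.28 against 6.21 to 6.22, share 0.86), IRF7 (5.16 against 5.31 to 5.32, share 0.94) and PDGFC (5.53 against 5.33 to 5.34, share 0.95). For P7 replicate 2 they were CD55 (5.23 against 5.34 to 5.36, share 0.85), NME1 (5.51 against 5.57 to 5.58, share 0.86) and PPARG (6.38 against 6.35, share 1.00). Those of P7 replicate 3 were SNAI2 (6.23 against 6.15 to 6.16, share 0.88) and TRAF1 (3.45 against 3.39 to 3.40, share 0.83). The P7 library with the most such values was replicate 4, in ACTA2 (1.96 against 1.82 to 1.83, share 0.93), AKR1C3 (3.59 against 3.50 to 3.51, share 0.89), CSF3 (9.33 against 9.09 to 9.11, share 0.92), EGR1 (3.82 against 3.17 to 3.25, share 0.88), INSIG1 (7.10 against 6.92 to 6.94, share 0.89), LAPTM5 (7.90 against 7.76 to 7.77, share 0.93), PHGDH (8.17 against 8.21, share 1.00) and STRA6 (2.15 against 1.86 to 1.90, share 0.86).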

How the results depend on the processing

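With a pseudocount of 0.1, 227 genes rose and 163 fell at least 2-fold, with 5 these were 49 and 57, and limma's treat test gave 61 and 64. Without the fold threshold 4048 rose and 3839 fell. The other counts stayed within 1.5 times of those reported. Leaving out 1 library gave 129 to 137 rises and 105 to 111 falls of at least 2-fold, 3813 to 3966 rises and 3582 to 3938 falls at any size. Same-numbered libraries of P3 and P7 did not deviate together (correlations of their deviations -0.122, -0.0356, 0.0144 and -0.0344). Such values cannot show whether these libraries were handled together, which is not stated. With the replicate block, 131 and 108 genes passed at 2-fold and 3920 and 3720 at any size, and of the genes checked only ELOVL5 lost its call.

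Of the named genes, CXCL11 and ELOVL5 missed the threshold under several alternatives, CXCL10 with all 16 libraries in the fit (0.28) and with quantile normalization (0.17), and ABCG2 with no filter on low values (0.29) and with quantile normalization (0.21). FN1, a top-ranked gene at both phases, was at 0.00 with quantile normalization, where ATF4, which did not pass, changed sign to 0.00. NME2 missed the threshold with no filter (-0.31) and CDK4 with no variance trend (0.08), and both without some single libraries. Genes that did not pass changed sign when 1 library was left out, with ranges of -0.11 to 0.04 for IFNB1, -0.04 to 0.02 for CDKN1A, -0.01 to 0.04 for IFIT2 and -0.06 to 0.04 for ZEB1. List medians near 0 changed sign, that of integrins and laminins to -0.01 and that of proteases to -0.01 with genes above 0.1 CPM, and those of integrins and laminins and of urothelial genes to -0.0 with no filter. With no filter, which adds genes at or near 0, the chromosome 13 windows had medians of 0.04 to 0.11, and the cytokine list -0.22. Depth limits genes near 1 CPM, where 1 count is up to 0.0296 CPM.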

Other observations

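Of the genes that changed at least 2-fold, 108 of the 131 that rose and 59 of the 108 that fell were in none of the lists, and a few of these are given here, chosen after their values were seen. ADGRG1, an adhesion receptor also known as GPR56, stood at 6.11, 6.28, 6.19 and 6.25 in log2(CPM+1) at P3 and at 8.32, 8.35, 8.37 and 8.39 at P7. The inward rectifier potassium channel KCNJ2 rose by 2.10 ± 0.07 on the log2 scale (SE, n = 4 libraries per phase), HKDC1, a hexokinase relative, by 1.87 ± 0.11, and the ligand SHH of the Hedgehog pathway by 1.77 ± 0.08. ABCC3, an exporter of organic anions, went from levels of 3.54 to 3.77 to levels of 5.20 to 5.26, and ASS1, which starts arginine synthesis from citrulline, from 4.48 to 4.64 up to 5.94 to 6.03.

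Among the genes that fell, CD274, which encodes the immune checkpoint ligand PD-L1, had levels of 5.54, 5.64, 5.74 and 5.64 at P3 and 4.25, 4.03, 4.19 and 4.07 at P7. SLIT2, a secreted guidance factor, went from 6.89 to 7.10 down to 5.11 to 5.23, and the complement inhibitor CD55 from 6.71 to 6.82 down to 5.23 to 5.36. BCL2A1, a survival gene of the BCL2 family, had a log2 fold change of -1.54 ± 0.09, the protease inhibitor TFPI2 one of -1.34 ± 0.03, and HAS2, which makes hyaluronan, one of -1.34 ± 0.11. In all of these genes, picked from those with a 2-fold change, the libraries of the phases were apart, as in 52.9% of all tested genes.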
